A study of Mus musculus with 2 samples.

Results

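The pancreas makes its digestive proteases as inactive precursors, which acinar cells pack into zymogen granules and release into the gut. Described here are 8 genes of that set, read in single cells of the E15.5 mouse pancreas. They are the carboxypeptidases Cpa1 and Cpb1, the chymotrypsinogens and related serine protease genes Ctrb1, Ctrl and Ctrc, and the elastases Cela1, Cela2a and Cela3b. The genes were taken by name from the 22023 genes that both tables hold, and all 8 were found. Mettl3pKO embryos lacked Mettl3, the methyltransferase that places N6-methyladenosine on RNA, in the Pdx1+ progenitors of the pancreas. WT embryos were the wild type of the same stage. Pdx1 is the early pancreatic progenitor factor, so that mesenchyme, blood and vessel cells of Mettl3pKO embryos were not targets of the deletion. The sources used here name neither the Cre line nor the number or sex of the embryos behind each library. With 1 library of each genotype, no difference between Mettl3pKO and WT below has a replicate check or a test. Every interval is a 95% interval that covers counting error only.

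During pancreas development the proteases do not start together. Cpa1 is already on in the multipotent tip cells, before acinar cells form, and Ctrb1 follows early. Cpb1, the elastases and the remaining chymotrypsin-like genes are grouped here as late genes, which build up as acinar cells fill their granules. Transcription of the set is driven in acinar cells by the PTF1 complex, which holds Ptf1a and Rbpjl and binds an E-box paired with a TC-box.

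The Mettl3pKO library held 3624 complete cells with a median of 16481 UMIs, and the WT library 6384 cells with a median of 10824 UMIs (a UMI, or unique molecular identifier, marks 1 captured RNA molecule). Cells ran from deep to shallow in both tables, which end at 10719 UMIs in Mettl3pKO and 3803 in WT, so shallow cells may be missing from each and the missing range differs. The libraries shared 33 cell indices, 0.911% of the Mettl3pKO cells and 0.517% of the WT cells. Cells were clustered without the 8 genes, and clusters were named from markers that also leave them out. That gave 2130 acinar-like cells in Mettl3pKO and 1863 in WT, whose median depths were 17431.5 and 13141 UMIs. In these cells the PTF1 subunit Ptf1a stood at 331 counts per 1000000 UMIs of the class (CPM) in Mettl3pKO and 232 CPM in WT, against 8.46 and 1.96 CPM in mesenchyme-like cells. Other markers of the class did not rank the libraries in the same way: Rbpjl stood at 644 CPM in Mettl3pKO and 1178 CPM in WT, and Bhlha15 at 239 and 234 CPM. The marker Nr5a2 was no higher than in duct and trunk-like cells, at 291 against 297 CPM in Mettl3pKO and 249 against 348 CPM in WT. Mettl3 itself had 299 UMIs (7.37 CPM) in Mettl3pKO acinar-like cells and 254 UMIs (9.26 CPM) in WT, a ratio of 0.795 (0.671 to 0.944). Mesenchyme-like cells, which were not targets of the deletion, gave nearly the same value, 0.811, with an interval that includes 1 (0.584 to 1.11). Duct and trunk-like cells gave 0.662 (0.511 to 0.851). The sources used here do not say which exons the deletion removes, so these counts of transcripts do not check the label. Acinar-like cells of the libraries differed in other ways as well: the median mitochondrial share was 10.7% in Mettl3pKO and 6.22% in WT, and 85.7% and 66.4% of cells were called proliferating. That call is a count of UMIs with no correction for depth. Among acinar-like cells of 13000 UMIs or more the shares were 87.2% in Mettl3pKO and 78.2% in WT. Mesenchyme-like cells also differed, at 85.9% in Mettl3pKO and 46.5% in WT. All 4 Y-linked genes measured were higher in Mettl3pKO, by 4.22-fold (Ddx3y) to 5.42-fold (Eif2s3y). The part of depth, mitochondrial share, proliferation and Y-linked transcripts in the ratios below was not tested, and values within matched cells are given where they change a result.

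The genes are scattered over 5 chromosomes of the mouse genome (build mm10, positions from GENCODE release M21). Cpa1 lies at chr6:30639218-30645363 on the plus strand, and the other 7 on the minus strand: Cpb1 at chr3:20248264-20275733, Ctrb1 at chr8:111686519-111691010, Ctrl at chr8:105932003-105933862 and Cela1 at chr15:100674421-100687921. Chromosome 4 carries Cela3b at chr4:137420999-137430540, Cela2a at chr4:141814962-141826160 and Ctrc at chr4:141814962-141846359. The annotated spans of Cela2a and Ctrc overlap each other on one strand and Casp9 on the opposite one, so UMIs of Ctrc, the rarest of the set, may include reads from a neighbour. The transcripts of Cela3b and its paralog Cela3a are 90.0% identical, and reads could be split between them. Cela3a had 7.51 CPM in Mettl3pKO acinar-like cells and 10.2 CPM in WT, far below Cela3b.

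RefSeq (GRCm38.p6) lists a promoter for 7 of the 8 genes, and 4 are printed because they bear on how the set is switched on and on the gene that differed most. Each is the 250 bases before the transcription start, 5′ to 3′ on the gene's strand. Capitals mark E-boxes (CANNTG) and TC-boxes (TTTCCC), either of which may read as its reverse complement. They come from chr6:30638968-30639217 (plus strand), chr3:20275734-20275983 (minus strand), chr8:111691011-111691260 (minus strand) and chr15:100687921-100688170 (minus strand).
Cpa1: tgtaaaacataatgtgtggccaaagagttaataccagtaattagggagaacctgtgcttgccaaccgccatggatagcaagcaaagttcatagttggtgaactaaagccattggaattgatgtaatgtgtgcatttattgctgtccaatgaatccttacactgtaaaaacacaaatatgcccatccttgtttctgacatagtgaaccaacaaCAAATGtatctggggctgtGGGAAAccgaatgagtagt
Cpb1: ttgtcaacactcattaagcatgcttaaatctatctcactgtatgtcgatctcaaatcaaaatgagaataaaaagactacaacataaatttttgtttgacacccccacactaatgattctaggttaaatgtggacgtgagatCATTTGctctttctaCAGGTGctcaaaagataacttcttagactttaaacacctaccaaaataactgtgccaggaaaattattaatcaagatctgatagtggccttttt
Ctrb1: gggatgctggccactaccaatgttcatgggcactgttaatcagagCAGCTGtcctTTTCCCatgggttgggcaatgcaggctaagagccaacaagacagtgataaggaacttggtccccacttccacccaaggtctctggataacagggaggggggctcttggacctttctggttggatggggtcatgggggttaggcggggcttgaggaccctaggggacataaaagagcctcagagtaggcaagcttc
Cela1: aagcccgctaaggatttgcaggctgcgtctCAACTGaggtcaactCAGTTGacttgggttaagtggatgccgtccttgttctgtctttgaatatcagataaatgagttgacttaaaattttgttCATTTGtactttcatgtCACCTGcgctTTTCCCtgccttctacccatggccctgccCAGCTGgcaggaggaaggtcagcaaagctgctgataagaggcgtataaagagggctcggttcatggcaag
An E-box was present in 7 of the 7 promoters, against 66.2% of all 32851 mouse promoters of that length. A TC-box was present in 4 of the 7 (Cpa1, Ctrb1, Cela1 and Cela2a), against 21.9% of all promoters. In Ctrb1 and Cela1 an E-box stands 4 bases before a TC-box, as it does in the trypsinogen promoters Prss1 and Gm5771 and in 0.0791% of all promoters. That spacing was looked for after the sequences were seen. The Cpb1 promoter holds 2 E-boxes and no TC-box in these 250 bases. AAGGTCA, a half-site bound by the acinar factor Nr5a2, was found in Cela1 alone among the 7, against 4.08% of all promoters, and so was TATAAA, against 12.4%. These are matches of letters and not measured binding. On the RNA, GGACT, the commonest form of the methylation motif of the Mettl3 enzyme, occurs 3 times in the Cpa1 transcript, 4 times in Cela2a, 2 times in Ctrc, 1 time in Cpb1 and Cela3b, and not in Ctrb1, Ctrl or Cela1. The median over 21877 protein-coding genes is 2, and 84.4% have at least 1. Their median transcript has 2267 bases, and of the 8 transcripts only that of Cpb1 (2718 bases) is longer. Per kilobase the motif occurs 3.74 times in Cela2a, 2.10 in Ctrc, 1.90 in Cpa1, 1.08 in Cela3b and 0.368 in Cpb1, against a median of 1.03.

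Together the 8 genes took 4.00% of all UMIs of Mettl3pKO acinar-like cells and 7.49% of those of WT. Their summed level was 39995 CPM in Mettl3pKO and 74901 CPM in WT, a ratio of 0.534 (0.533 to 0.535). At a 1.5-fold limit, 7 of the 8 were lower in Mettl3pKO and none was higher. Of all 13607 genes with at least 20 UMIs over both libraries, 8.76% were lower and 21.2% higher at that limit, and without the minimum of UMIs 16.5% of 19704 genes were lower. At a 2-fold limit 3 of the 8 were lower (Cpb1, Ctrc and Cela1), against 4.09% of all genes. The median log2 ratio was -0.85 over the 8 genes and 0.17 over all genes. Among the 145 genes of at least 1000 CPM in WT, 16 (11%) were that much lower. Both tables reach below 13000 UMIs, and in acinar-like cells of at least that depth the ratio of the sum was 0.635 with 5 of 8 genes at least 1.5-fold lower. With at most 10% mitochondrial UMIs and at least 500 genes per cell the ratio was 0.676 with 3 of 8, and as a mean over the matched score ranges described further on it was 0.946 with 1 of 8, Cpb1. The share of all genes past the limit was not counted in these subsets, so their counts cannot be set against it.

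Ctrb1, the main chymotrypsinogen, was the most abundant transcript of all genes in both libraries. It stood at 28261 CPM in Mettl3pKO and 52015 CPM in WT, a ratio of 0.543 (0.542 to 0.545). The median acinar-like cell held 209 Ctrb1 UMIs per 10000 in Mettl3pKO, with quartiles of 93.4 and 416, and 548 in WT, with quartiles of 326 and 794. The ranges of single cells therefore overlapped, and every acinar-like cell of either library held at least 1 UMI. Cpa1, which removes hydrophobic residues from the ends of peptides, came next with 6693 CPM in Mettl3pKO and 11789.6 CPM in WT, a ratio of 0.568 (0.565 to 0.571). Its median cell differed more than its sum: 19.9 UMIs per 10000 in Mettl3pKO (quartiles 7.35 and 115) and 115 in WT (quartiles 58.7 and 179). The upper quartile of Mettl3pKO cells thus came near the WT median, and the low quartile lay far under the WT one.

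Among the elastases, Cela3b was the most abundant, at 3138 CPM in Mettl3pKO and 4791 CPM in WT (ratio 0.655, 0.650 to 0.660). Cela1 stood at 1282 CPM in Mettl3pKO and 2852 CPM in WT (ratio 0.450, 0.445 to 0.455). Cela2a was scarcer, with 302 CPM in Mettl3pKO and 510 CPM in WT (ratio 0.592, 0.577 to 0.606). Ctrl and Ctrc, which encode chymotrypsin-like proteases, were near the limit of detection. Ctrl had 304 UMIs in Mettl3pKO and 299 in WT (7.49 and 10.9 CPM), a ratio of 0.687 (0.584 to 0.809), and it is the gene that did not pass the 1.5-fold limit. Ctrc had 100 UMIs in Mettl3pKO and 144 in WT (2.46 and 5.25 CPM), a ratio of 0.469 (0.3598 to 0.610).

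Cpb1, which removes basic residues from peptide ends, differed most. It had 12608 UMIs in Mettl3pKO acinar-like cells and 80297 in WT, which is 311 CPM and 2928 CPM, a ratio of 0.106 (0.104 to 0.108), or 9.43 times higher in WT. It ranked 394th among all genes of Mettl3pKO acinar-like cells and 41st in WT. The median cell had no Cpb1 UMI in Mettl3pKO and 12.4 per 10000 in WT. The highest-expressing 5% of cells held 66.7% of its UMIs in Mettl3pKO and 27.5% in WT. The plot of UMIs per cell shows this gap beside the smaller ones of the other genes.

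**Figure D1:**
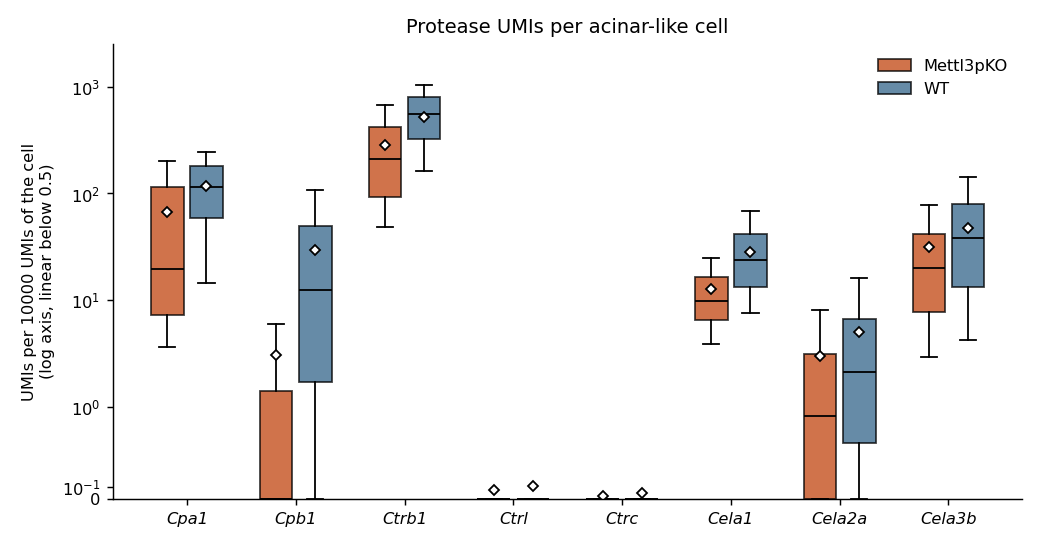
UMIs of each protease gene per 10000 UMIs of the cell in acinar-like cells (log axis, linear below 0.5), with Mettl3pKO (2130 cells) left of WT (1863 cells). Boxes span the quartiles with the median as a line, whiskers span the 10th to the 90th percentile, and diamonds give the level summed over cells. Cpb1 has a median of 0 in Mettl3pKO and 12.4 in WT, and Ctrl and Ctrc have medians of 0 in both.

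The makeup of the set was otherwise close in the libraries. Of all UMIs of the 8 genes, Ctrb1 took 70.7% in Mettl3pKO and 69.4% in WT, Cpa1 16.7% and 15.7%, and Cela3b 7.85% and 6.40%. Cela1 took 3.20% in Mettl3pKO and 3.81% in WT, and Cela2a 0.754% and 0.681%. Cpb1 stood apart, with 0.777% in Mettl3pKO and 3.91% in WT.

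To count expressing cells at equal depth, each cell was thinned to 8000 UMIs, which all 2130 Mettl3pKO cells and 1707 of the 1863 WT cells reached. Cpb1 was then detected in 35.9% (33.8 to 37.9) of Mettl3pKO acinar-like cells and 82.6% (80.7 to 84.4) of WT ones. Before thinning the shares were 47.7% and 89.7%. In mesenchyme-like cells, which should not make the gene, the thinned share was 7.94% in Mettl3pKO and 19.5% in WT, at median depths of 13425 and 8901 UMIs before thinning. Cela2a was detected in 52.5% of Mettl3pKO cells and 67.5% of WT cells, against 1.08% and 1.51% in mesenchyme-like cells. Ctrl was found in 4.13% of Mettl3pKO cells and 5.27% of WT cells and Ctrc in 1.83% and 3.75%, all above their mesenchyme-like shares of 0.377% or less. Ctrb1, Cpa1, Cela1 and Cela3b were detected in 97.4% or more of the thinned acinar-like cells of either library, and Ctrb1 also in 97.8% and 98.0% of mesenchyme-like cells, so presence or absence says little for them. The commonest number of the 8 genes detected in a thinned cell was 5 in Mettl3pKO and 6 in WT, where 53.8% of cells had 6.

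Early and late genes were then set against each other within each library. The late genes Cpb1, Ctrl, Ctrc, Cela1, Cela2a and Cela3b had 0.144 UMIs for each UMI of the early genes Cpa1 and Ctrb1 in Mettl3pKO acinar-like cells, and 0.174 in WT. The ratio of the libraries was 0.829 (0.824 to 0.834). Cpb1 set that direction: without it the late genes had 0.135 UMIs per early UMI in Mettl3pKO and 0.128 in WT, a ratio of 1.06 (1.05 to 1.06). Leaving out any other late gene gave 0.551 (Cela3b) to 0.832 (Cela1). Among cells of 13000 UMIs or more it was 0.981 (0.974 to 0.988), at late to early ratios of 0.144 in Mettl3pKO and 0.146 in WT. By single cells with at least 100 UMIs of the set, the late share had a median of 11.97% in Mettl3pKO and 12.9% in WT, with 10th and 90th percentiles of 5.08% and 26.1% in Mettl3pKO and 5.12% and 24.0% in WT.

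Levels of the set went with depth in both libraries. In Mettl3pKO, acinar-like cells from 10000 to 13000 UMIs held 34396 CPM of Ctrb1 and 481 CPM of Cpb1, and cells of 20000 UMIs or more held 24809 and 251 CPM. WT cells of 20000 UMIs or more held 33703 CPM of Ctrb1 and 1218 CPM of Cpb1. WT cells of fewer than 10000 UMIs, for which Mettl3pKO has no counterpart, held 73130.1 and 5444 CPM. At matched depth Cpb1, Cpa1, Ctrb1, Cela1, Cela2a and Ctrc were lower in Mettl3pKO in each of the 4 ranges that both libraries fill. Cela3b was lower except at 20000 UMIs or more, where it had 2776 CPM in Mettl3pKO and 2255 CPM in WT. Ctrl was lower only in that deepest range.

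Cells were next matched by how far their granule program had run. The score was the summed UMIs of 11 trypsinogen genes and the trypsin inhibitor Spink1 per 10000 UMIs outside the 8 genes, and it holds none of them. It was divided at the quintiles of WT acinar-like cells, 16.3, 39.8, 73.7 and 147. Of the Mettl3pKO cells, 69.4% fell in the lowest range and 2.35% in the highest (1478 and 50 cells), where WT has about 373 cells in each range by construction. The genes of the score were themselves lower in Mettl3pKO: 9 of 12 by 1.5-fold or more and none higher, with a median log2 ratio of -2.47. Over all genes 8.76% were that much lower and 21.2% that much higher. Prss1 had a ratio of 0.0528 and Gm5771 0.0686, while Gm2663 and 1810009J06Rik stood at 0.856 and 0.957. Matched ranges therefore compare cells at equal trypsinogen and Spink1 level, not at equal age. Between 0.892% and 5.90% of the cells of a library lay within 10% of any one limit.

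All 8 genes were higher in the highest range than in the lowest in both libraries, with Cpb1, Cela2a and Ctrl the steepest. Cpb1 was 32.8-fold higher in the highest range than in the lowest in Mettl3pKO and 27.3-fold in WT, Cela2a 20.6-fold and 23.2-fold, Ctrl 14.5-fold and 14.7-fold, and Cela3b 6.55-fold and 10.02-fold. Ctrb1 was 4.71-fold higher in Mettl3pKO and 4.65-fold in WT, Cpa1 3.95-fold and 3.75-fold, Cela1 3.60-fold and 5.11-fold, and Ctrc, on few UMIs, 7.11-fold and 4.14-fold. The late gene Cela1 thus had the smallest of these folds in Mettl3pKO.

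**Figure D2:**
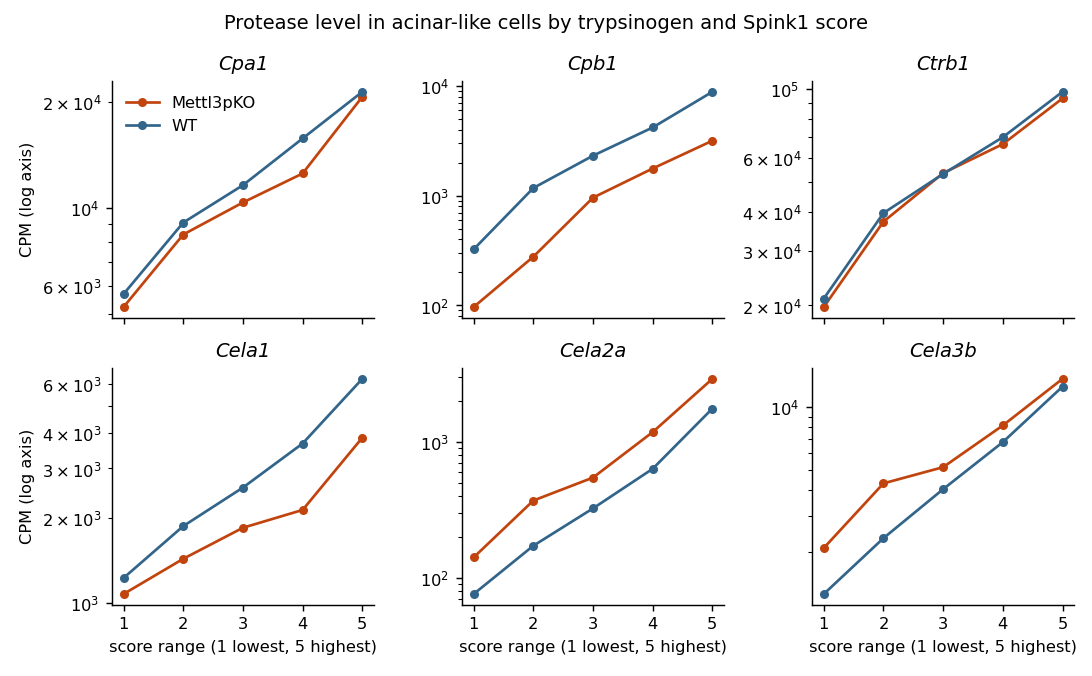
Level of the 6 abundant protease genes (CPM, log axis with its own span in each panel) in acinar-like cells over 5 ranges of the trypsinogen and Spink1 score, for Mettl3pKO and WT. Each point is the UMIs of a gene summed over the cells of a range. Cpb1 and Cela1 lie below WT in Mettl3pKO in all 5 ranges, Cela2a and Cela3b above it, and Ctrb1 nearly on it.

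Within score ranges the set stopped moving as a block. The summed level in Mettl3pKO was 0.914 to 0.977 times that in WT over the 5 ranges, and Ctrb1 was 0.938 to 1.01 times, against 0.534 and 0.543 over all acinar-like cells. Cpa1 was 0.796 to 0.968 times the WT level. Cpb1 was lower in Mettl3pKO in 5 of 5 ranges, at 0.236 to 0.422 times the WT level, with 96.8 CPM in Mettl3pKO and 325 CPM in WT in the lowest range and 3173 and 8861 CPM in the highest. Cela1 was lower in 5 of 5 ranges too, at 0.580 to 0.877 times the WT level. Cela2a turned the other way: it was 1.65 to 2.15 times higher in Mettl3pKO in 5 of 5 ranges, with 141 CPM in Mettl3pKO and 75.7 CPM in WT in the lowest range and 2907 and 1757 CPM in the highest. Cela3b was 1.09 to 1.84 times higher in 5 of 5 ranges. Ctrl was 1.63 to 1.78 times higher in 5 of 5 ranges, on few UMIs, and Ctrc was lower in 3 of 5, at as little as 0.275 times the WT level.

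Clusters gave a second way to match cells, since 7 acinar-like clusters held at least 30 cells of both libraries. Other digestive enzymes, the genes of the score included, were not left out of the clustering, so this matching is not independent of the score. The summed level in Mettl3pKO was 0.929 to 1.14 times that in WT over these 7 clusters. Cpb1 was lower in Mettl3pKO in 7 of 7, at 0.239 to 0.852 times the WT level, and the interval of the highest of these (0.707 to 1.03) includes 1. Cpa1 was 0.977 to 1.54 times the WT level, Ctrb1 0.893 to 1.10, Cela1 0.626 to 1.09, Cela2a 0.807 to 1.87 and Cela3b 0.868 to 1.81. The cluster richest in the set was almost wholly WT, with 16 Mettl3pKO and 271 WT cells. The largest Mettl3pKO cluster, led by Serpina6, held 819 Mettl3pKO and 100 WT cells. The late to early ratio was 1.26 times the WT value in Mettl3pKO in the lowest score range, 1.23 in the next, and 0.933, 0.941 and 0.843 in the others. Among cells of 13000 UMIs or more it was 1.29, 1.25, 1.05, 1.06 and 0.948 in the same order, so ranges 3 and 4 changed direction. As a geometric mean, the Cpb1 ratio was 0.338 over the score ranges and 0.450 over the clusters.

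**Figure D3:**
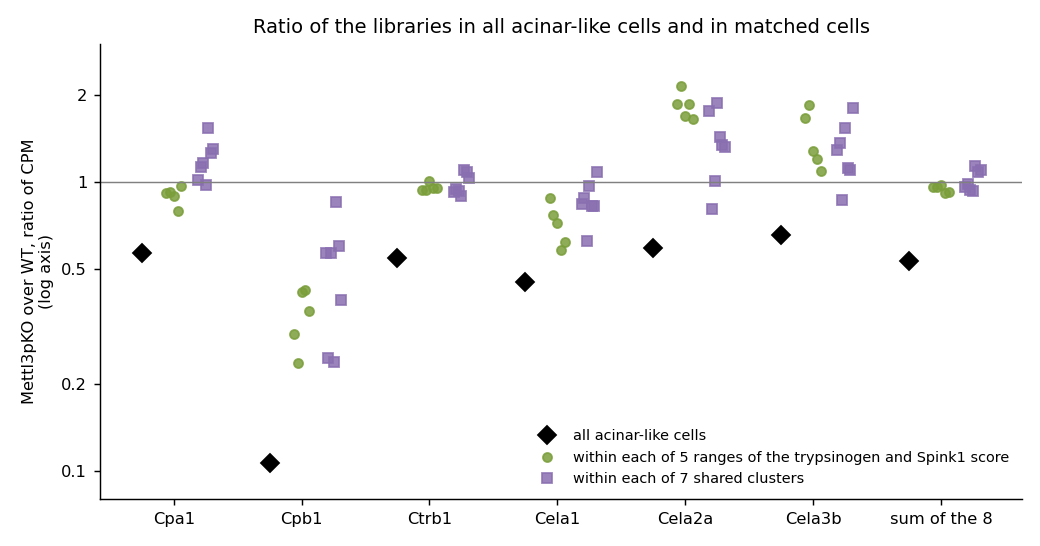
Ratio of Mettl3pKO to WT (CPM, log axis) for the 6 abundant protease genes and the sum of all 8, in all acinar-like cells (diamonds), within each of 5 score ranges (circles) and within each of 7 shared clusters (squares). All Cpb1 points lie below 1, whereas most matched points of Cela2a and Cela3b lie above 1 and those of Ctrb1 and the sum lie around it.

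Cells rich in one gene tended to be rich in the others. Across the 2130 Mettl3pKO acinar-like cells, Ctrb1 and Cela3b had a Spearman correlation of 0.653 and Cpb1 and Ctrb1 one of 0.422. Across the 1863 WT cells the values were 0.792 and 0.634. These are descriptions, since the cells of a library share their depth and source. Of 2320 other genes ranked by their mean correlation over the libraries, the colipase Clps (0.818), the lipase-related Pnliprp1 (0.790) and Spink1 (0.600) were most like Cela3b, and Pnliprp1 (0.809), Clps (0.781) and Spink1 (0.691) most like Ctrb1. For Cpa1, Pnliprp1 had 0.517 and Spink1 0.502. Cpb1 was closest to Spink1 (0.572), Pnliprp1 (0.548) and the trypsinogen Try10 (0.479), Cela1 to Pnliprp1 (0.631), Clps (0.590) and Spink1 (0.530), and Cela2a to Clps (0.662), Pnliprp1 (0.578) and the bile salt lipase Cel (0.571). For Ctrl the highest were Clps (0.215), Pnliprp1 (0.204) and Zg16 (0.192), and for Ctrc Aqp8 (0.0898) and Ssr4 (0.0897), values too low to read in genes this sparse.

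Other genes of the acinar program put these ratios in place. The counts below stand beside 8.76% of all genes at least 1.5-fold lower in Mettl3pKO acinar-like cells and 21.2% at least that much higher. Of 12 lipase and amylase genes measured, 8 were at least 1.5-fold lower in Mettl3pKO and none higher, with a median log2 ratio of -1.12. The lowest were Amy2a5 (0.302) and Amy2a3 (0.340) and the highest Amy1 (1.08) and Pla2g1b (1.41). Of 13 other secretory granule genes, 6 were lower and 1 higher, with a median of -0.55, from Pdia2 (0.205) and Zg16 (0.251) to Cldn10 (1.09) and Gp2 (2.23). The 11 acinar transcription factors did not share this: 1 was lower and 2 were higher, near the shares over all genes, with a median of 0.34. Rbpjl, the subunit that PTF1 takes on in acinar cells, was at 0.546 and Creb3l2 at 0.902, while Mecom was at 1.55 and Foxa2 at 1.56. Of 12 genes of the secretion machinery, 4 were lower and 1 higher (median -0.07), from the muscarinic receptor Chrm3 (0.239) and the trefoil factor Tff2 (0.299) to Stx2 (1.35) and Rab27b (1.56). None of 13 folding genes of the endoplasmic reticulum was lower and 1 was higher (median -0.20), from Hsp90b1 (0.729) and Herpud1 (0.737) to Hspa5 (1.22) and Sel1l (1.58).

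Protease inhibitors, among them the trypsin inhibitor Spink1 that is also in the score, went in both directions. Of 10 measured, 2 were lower and 4 higher in Mettl3pKO, with a median log2 ratio of -0.01. Over all genes 8.76% were lower and 21.2% higher at the same 1.5-fold limit. Spink1 (0.170) and Serpini2 (0.378) were lowest, and the antitrypsin genes Serpina1b (3.41) and Serpina1a (3.66) highest. Of 9 carboxypeptidases that belong to other cells, 2 were lower and 2 higher (median 0.33), the number higher being near the share over all genes. They ran from the prohormone carboxypeptidase Cpe (0.255) and the mast cell gene Cpa3 (0.472) to Agbl5 (1.52) and Cpm (2.20). Of 14 genes of dissociation and stress, none was lower and 9 were higher (median 0.71), and of 9 proliferation genes none was lower and 4 were higher (median 0.49). Their part in the protease ratios was not tested.

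Outside acinar-like cells the set was read in every class compared here, and its level in the median cell was low and much alike in most of them. In a suspension, RNA set free by broken cells can reach wells that hold other cells. No profile of empty wells was used here, and the part of free RNA in these levels was not tested. Mesenchyme-like cells held 1084 CPM of the set in Mettl3pKO and 772 CPM in WT, which is 2.71% (2.63 to 2.79) and 1.03% (1.01 to 1.05) of the acinar-like level of the same library. The median mesenchyme-like cell held 687 CPM in Mettl3pKO and 682 CPM in WT. Median cells of the other classes of at least 30 cells in both libraries were close to that as well: 1006 and 914 CPM in duct and trunk-like cells, 911 and 770.02 CPM in alpha-like, 908 and 921 CPM in beta-like, 740 and 662 CPM in mesothelium-like, and 744 and 717 CPM in mast cell and granulocyte-like cells (Mettl3pKO, then WT). By contrast, the median acinar-like cell held 31807 CPM in Mettl3pKO and 75499.8 CPM in WT.

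Summed over all cells, the same classes looked very different. Duct and trunk-like cells reached 6465 CPM in Mettl3pKO and 1508 CPM in WT, which is 16.2% and 2.01% of the acinar-like level. Alpha-like cells reached 22.0% in Mettl3pKO and 1.56% in WT, mesothelium-like cells 18.6% and 1.17%, and mast cell and granulocyte-like cells 15.1% and 1.56%. Beta-like cells did not share this, at 3.24% and 1.59%. Part of the excess lay in a few cells: the top 5% of cells held 55.0% of the set's UMIs in Mettl3pKO duct and trunk-like cells and 33.8% in WT, 48.8% and 39.4% in alpha-like cells, and 40.4% and 16.5% in mesenchyme-like cells. Without these top cells, alpha-like cells still stood at 12.6% of the acinar-like level in Mettl3pKO and 1.02% in WT. The doublet caller marked 1 of 3623 cells in Mettl3pKO, where it did not work, and 342 of 6372 in WT, and the marked cells were removed. A cluster of 185 Mettl3pKO and 11 WT cells with a high doublet score was left out of every class. The part of remaining doublets in these levels was not tested.

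**Figure D4:**
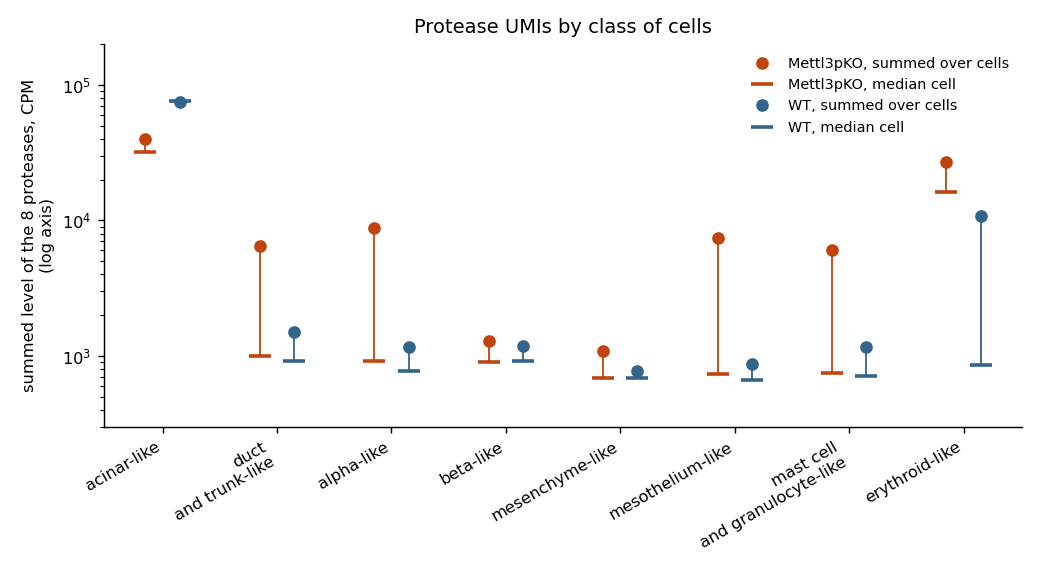
Summed level of the 8 protease genes (CPM, log axis) by class of cells, with Mettl3pKO left of WT. Circles give UMIs summed over all cells of the class and dashes the median cell, joined by a line. The classes shown have at least 30 cells in both libraries. Apart from acinar-like and erythroid-like cells, their median cells lie between 662 and 1006 CPM in both libraries, whereas the summed level is 8815 CPM in Mettl3pKO alpha-like cells.

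Erythroid-like cells were the exception. Their median cell held 16314 CPM of the set in Mettl3pKO and 854 CPM in WT. The class joined 2 clusters, whose levels are given here summed over cells. The first, with 2 Mettl3pKO and 69 WT cells, held 751 and 765 CPM. The second, with 45 Mettl3pKO and 42 WT cells, held 27794 and 28937 CPM, or 69.5% and 38.6% of the acinar-like level, beside 118091 and 183099.8 CPM of globin transcripts and with acinar as its second-best class. Globin in acinar-like cells was at 1717 CPM in Mettl3pKO and 2989.7 CPM in WT. The sum over erythroid-like cells is thus mostly that of the second cluster. In that cluster the median cell held 16534 CPM in Mettl3pKO and 6198 CPM in WT.

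The share of early genes in the set was close to the acinar-like one in the 4 largest other classes. Early genes made up 87.4% of the set's UMIs in Mettl3pKO acinar-like cells, and 87.1% in duct and trunk-like, 86.2% in alpha-like, 84.8% in beta-like and 83.6% in mesenchyme-like cells. In WT the acinar-like share was 85.2%, and the others were 83.9%, 86.5%, 82.3% and 82.6% in the same order. Ctrb1 took 69.6% of the set's UMIs in Mettl3pKO mesenchyme-like cells and 66.3% in WT, close to its 70.7% and 69.4% in acinar-like cells. Scarcer genes shifted more: Cpb1 took 2.86% of the set in Mettl3pKO mesenchyme-like cells and 3.91% in WT ones, and Cela2a 0.189% and 0.278%. In mast cell and granulocyte-like cells Cpa1 took 6.15% in Mettl3pKO and 18.8% in WT. Ctrc had 0 UMIs in WT duct and trunk-like, alpha-like, beta-like and mesothelium-like cells. Ctrl had 0 UMIs in the Mettl3pKO mesenchyme-like cells, which allows up to 0.769 CPM, and 5 UMIs in WT. Of all UMIs of the set in kept cells, acinar-like cells held 89.0% in Mettl3pKO and 96.5% in WT.

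Since acinar-like cells were 58.8% of the kept cells in Mettl3pKO and 30.9% in WT, the whole suspensions differed far less than the acinar-like cells. Over all kept cells the set stood at 27751 CPM in Mettl3pKO and 28786 CPM in WT, a ratio of 0.964. The ratio was 1.01 for Cpa1, 0.984 for Ctrb1, 1.18 for Cela3b and 1.07 for Cela2a, but 0.813 for Cela1 and 0.193 for Cpb1. Mesenchyme-like cells without the 5% richest in the set came near some of these values. The sum was 687 CPM in Mettl3pKO and 682 CPM in WT, a ratio of 1.01 (0.962 to 1.05), with 1.07 for Cpa1, 1.04 for Ctrb1, 1.16 for Cela3b, 0.612 (0.470 to 0.786) for Cela1 and 0.297 (0.194 to 0.438) for Cpb1. Beta-like cells treated the same way gave a sum ratio of 0.996, with 0.646 for Cela1 and 0.269 for Cpb1. With all mesenchyme-like cells kept, Cpb1 had a ratio of 1.03 (0.828 to 1.27), so its low value there appears only without the richest cells. The sum was then at 1.40, Ctrb1 at 1.48 and Cela3b at 1.72. With all beta-like cells kept, the sum was at 1.09 and Cpb1 at 0.335. The removed cells were picked by the level of these same 8 genes, so the removal itself can move the ratios. Counts of Cela2a in these 2 trimmed classes were 5 and 7 UMIs in Mettl3pKO and 12 and 8 in WT, too few to place. The other classes trimmed in this way did not come near the ratio of all kept cells: the sum ratio was 2.995 in duct and trunk-like, 6.59 in alpha-like, 5.50 in mesothelium-like and 4.49 in mast cell and granulocyte-like cells.

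**Figure D5:**
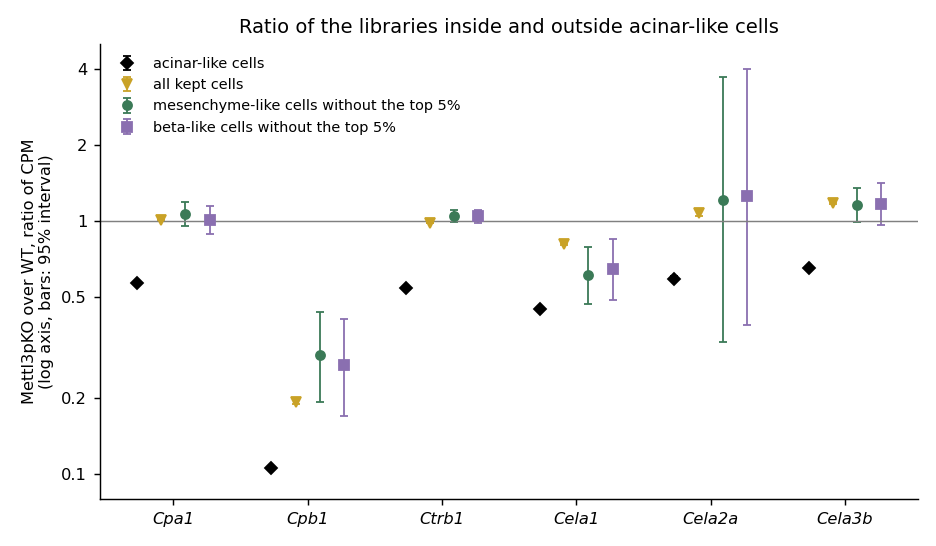
Ratio of Mettl3pKO to WT (CPM, log axis) for the 6 abundant protease genes in acinar-like cells, in all kept cells, and in mesenchyme-like and beta-like cells without the 5% of cells richest in the 8 genes. Bars are 95% intervals for counting error. In these mesenchyme-like and beta-like cells the ratios of Cpa1, Ctrb1 and Cela3b lie near 1 and those of Cpb1 are 0.297 and 0.269, nearer to all kept cells (0.193 for Cpb1) than to acinar-like cells. The removed cells were picked by the level of these genes. With all cells kept Cpb1 was at 1.03 in mesenchyme-like and 0.335 in beta-like cells. Other classes trimmed in this way did not come near all kept cells.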

How the data were processed

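Pancreas cells of E15.5 embryos were captured on the BD Rhapsody microwell system and sequenced, with 1 library per genotype. The authors deposited raw UMI counts of each gene in each cell, as whole numbers. The pipeline was the BD Rhapsody whole-transcriptome one, version 1.8, with a mouse STAR index, per the file headers. Per the submitters' processing notes, the genome build was mm10 and Seurat is named without its role. Each table ended inside its last line, and that 1 cell was dropped. The set of 8 genes and the gene lists were chosen with earlier results of these data known.

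The filter on cells asked for 200 genes or more and no more than 25% mitochondrial UMIs. Cells that Scrublet marked were removed, which left 3622 Mettl3pKO and 6030 WT cells. Scanpy 1.11.5 clustered both libraries together, with no integration. It used 2000 variable genes without the 8 proteases, 30 principal components, 15 neighbours and Leiden resolution 1.0. A cluster took the class whose markers scored highest, if at least 3 were detected. A median doublet score above 0.1 left it unnamed. These naming limits were set after values were seen, and classes need not be those of the submitters.

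UMIs were summed per class and library and divided by all UMIs of the class (CPM). A UMI counts a molecule once, so no length correction was made. Ratios carry exact conditional binomial intervals, cell shares exact Clopper-Pearson intervals, and the late to early ratio one from the variance of log counts, in place of the exact one planned. For a count of 0, the limit given is that of 3 counts. A gene counted as changed in size at 1.5-fold, among genes with at least 20 UMIs over both libraries, and log2 ratios add 0.5 UMIs. A cell with at least 2 UMIs over 9 proliferation genes was called proliferating. All 8 genes are named. From each list the 2 lowest and 2 highest ratios are named, and for each protease the 3 most correlated genes, of which 1 gene is not reported here. The removal of the top 5% of cells by summed protease level outside the acinar-like class was chosen after seeing the data. The ratio intervals were tried on simulated counts with known changes and counting error alone, which is the error they assume. That trial cannot show whether they cover the spread between cells or embryos. Alternatives covered filters, doublets, clustering, depth, scaling, sex-linked transcripts, thresholds and, added after seeing the data, matched score ranges, shared clusters and late genes without Cpb1. Median depths were 16481 UMIs per cell in Mettl3pKO and 10824 in WT.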

Additional observations from a re-analysis of the deposited data

Results flagged for a closer look

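The summed level of the 8 proteases was lower in Mettl3pKO acinar-like cells (ratio 0.534) but higher in Mettl3pKO than in WT in 7 other classes. The ratio was 8.48 in mesothelium-like, 7.57 in alpha-like, 5.17 in mast cell and granulocyte-like, 4.29 in duct and trunk-like, 2.49 in erythroid-like, 1.40 in mesenchyme-like and 1.09 in beta-like cells. These are opposite directions in different classes, and with 1 library per genotype the difference between classes was not tested. Within the 2 erythroid-like clusters the levels summed over cells were alike, at 751 CPM in Mettl3pKO and 765 CPM in WT in one and 27794 and 28937 CPM in the other. These clusters hold 2 and 45 Mettl3pKO cells and 69 and 42 WT cells. The median cell of the second was not alike, at 16534 CPM in Mettl3pKO and 6198 CPM in WT. Without the 5% of cells richest in the set, the ratio was 5.50 in mesothelium-like, 6.59 in alpha-like, 4.49 in mast cell and granulocyte-like, 2.995 in duct and trunk-like and 3.79 in erythroid-like cells, but 1.01 in mesenchyme-like and 0.996 in beta-like cells. In the first 4 of these classes the median cells of the libraries differed far less than the sums, as given above. Scrublet marked 1 Mettl3pKO cell and 342 WT cells, which were removed, and the part of remaining doublets was not tested.

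The ratio of late to early protease UMIs was lower in Mettl3pKO over all acinar-like cells (0.829 of the WT value) but higher in the lowest of the 5 trypsinogen and Spink1 ranges (1.26) and in the next (1.23). These ranges hold 1478 and 363 Mettl3pKO cells, and 373 and 372 WT cells. Among cells of 13000 UMIs or more the ratios of these ranges were 1.29 and 1.25. Ranges 3 and 4 then also lay above 1, at 1.05 and 1.06, and range 5 was at 0.948. The difference between ranges was not tested.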

How the results depend on the processing

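No paired analysis was possible because there was 1 library per genotype. The ratio of the summed level in acinar-like cells, 0.534, was below 1 in every alternative other than shared clusters. It was 0.676 with the stricter filter on cells, 0.635 for cells of 13000 UMIs or more, 0.561 for cells not proliferating, 0.515 for thinned cells, 0.499 per UMI outside digestive enzymes, 0.495 as a mean over cells, 0.540 and 0.480 for cells with only Y-linked or only Xist transcripts, 0.536 at Leiden resolution 2.0 and with no filter, 0.537 without the top 5% of doublet scores and 0.532 with digestive enzymes left out of the variable genes. Matched score ranges gave 0.946, and shared clusters turned the direction, at 1.01. In the 13000 UMI cells it was 0.667 with Y-linked and 0.570 with Xist transcripts only. The count of 7 genes at least 1.5-fold lower became 3 at 2-fold or with the stricter filter, 4 in deep cells with Y-linked transcripts and 1 in matched ranges. For the subsets of cells the share of all genes past 1.5-fold was not counted. The 10% mitochondrial limit of that filter lies below the median of Mettl3pKO acinar-like cells.

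The late to early ratio of 0.829 was 0.792 with the stricter filter, 0.981 for 13000 UMIs or more, 0.819 for cells not proliferating, 0.794 thinned, 0.765 as a mean over cells, 0.858 and 0.742 with Y-linked or Xist transcripts only, 0.839 with Cela1 counted as early, 0.824 without enzymes among variable genes, 0.851 in deep cells with Xist transcripts, and reversed, at 1.14, in deep cells with Y-linked ones and, at 1.06, with Cpb1 left out of the late genes.

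Single genes reversed as follows. Ctrl went above 1 in cells of 13000 UMIs or more (1.04), cells not proliferating (1.05) and matched ranges (1.73), Cela2a in matched ranges (1.83) and clusters (1.31), Cela3b in both (1.39 and 1.27) and in deep cells with Y-linked transcripts (1.18), and Cpa1 in clusters (1.18). Cpb1 stayed between 0.0843 and 0.450 over 19 alternatives.

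The mesenchyme-like level, 2.71% of acinar-like in Mettl3pKO and 1.03% in WT, was 2.12% and 0.962% with the stricter filter, 3.15% and 1.24% for 13000 UMIs or more, 2.55% and 0.677% for cells not proliferating, 2.40% and 0.955% thinned, 2.50% and 0.888% outside enzymes, 2.40% and 0.921% as a mean over cells, 2.12% and 1.06% with Xist transcripts only, and 2.91% and 1.46% or 2.21% and 1.16% in deep cells with Y-linked or Xist ones. In Mettl3pKO it was 2.49% with Y-linked transcripts only, 2.99% with Scrublet-marked cells kept, 3.01% without the top 5% of doublet scores and 2.29% with the proteases among the variable genes. The causes were not tested. Ctrl and Ctrc rest on 100 to 304 UMIs per library, and depth limits what can be said of them.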
